A study of Mus musculus with 32 samples.

Results

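Kidney RNA of miR-155-/- mice was compared between 48 h and 24 h after cisplatin. The 8 arrays were chosen by their titles, 4 labelled 48 h and 4 labelled 24 h, from a series of 32 arrays in 8 groups of 4. All 8 mice were males aged 12 to 16 weeks of the strain B6.Cg-Mir155tm1.1Rsky/J, which carries a targeted deletion of the miR-155 gene and was first obtained from The Jackson Laboratory, and each had received 1 injection of 20 mg/kg cisplatin. The same interval in wild type C57BL/6 males from Charles River Laboratories, of the same age range and dose, served as the comparison (4 arrays at 48 h and 4 at 24 h). Each array held homogenised whole kidney of a different animal, so a p-value here rests on the spread between animals. That spread, and each SE, is pooled over all 8 groups, and is not that of the 48 h and 24 h groups alone. The 0 h mice of both genotypes received saline. The knockout and wild type mice came from different suppliers, so that genotype and colony cannot be told apart. The array carried 0 probes for the miR-155 host transcript, and the deletion could therefore not be checked on it.

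Cisplatin enters the cells of the proximal tubule through organic cation transporters, forms DNA adducts and kills or injures them, and renal function usually worsens over the days after a dose. Injured tubule cells lose transport and metabolic genes and begin to make injury proteins, chemokines and keratins. The microRNA miR-155 is processed from its host transcript in activated immune cells and injured tissue, and lowers target mRNAs that pair with its seed. The 2 mature strands of the deleted gene are printed, as listed in RefSeq on GRCm38.p6 with the seed (bases 2 to 8) in capitals, the 5p strand at chr16:84714143-84714165 and the 3p strand at chr16:84714182-84714202, both on the + strand.
mmu-miR-155-5p: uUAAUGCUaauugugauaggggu
mmu-miR-155-3p: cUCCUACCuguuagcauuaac

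Values are log2 of the background-subtracted processed signal minus the array's 75th percentile, so that 0 is the 75th percentile of the array's probes, and per-array values are given in the order of replicates 1 to 4. Tubule markers were bright on all 8 arrays, as fits the kidney label: Umod, the main protein of the thick ascending limb, lay between 4.26 and 6.62, Lrp2, the endocytic receptor megalin, between 3.88 and 5.02, and the phosphate transporter gene Slc34a1 between 4.38 and 5.27. In whole tissue, fewer cells of a type and less RNA per cell cannot be told apart. Replicate 3 of both groups stood apart. Within a group, replicate 3 correlated with the other arrays at 0.957 to 0.978, the other arrays with each other at 0.987 to 0.994 (Pearson's r over genes tested). The first principal component of the 8 arrays, 53.3% of the variance, separated both from the remaining 6. On the second component of the 8 arrays, 48 h replicate 3 lay on the side of the 24 h arrays and the reverse. With all arrays of the series, the second component placed both replicate 3 arrays on the 24 h side. They scored 59.61 (24 h) and 61.4 (48 h) there. The other miR-155-/- arrays scored 28 to 40.82 at 24 h and -21.63 to -14.44 at 48 h. Counts of calls are therefore given with all 8 arrays and without both replicate 3 arrays, and so are many single genes. The 2 arrays were picked out on these same data, so the smaller spread without them is not independent evidence.

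**Figure D1:**
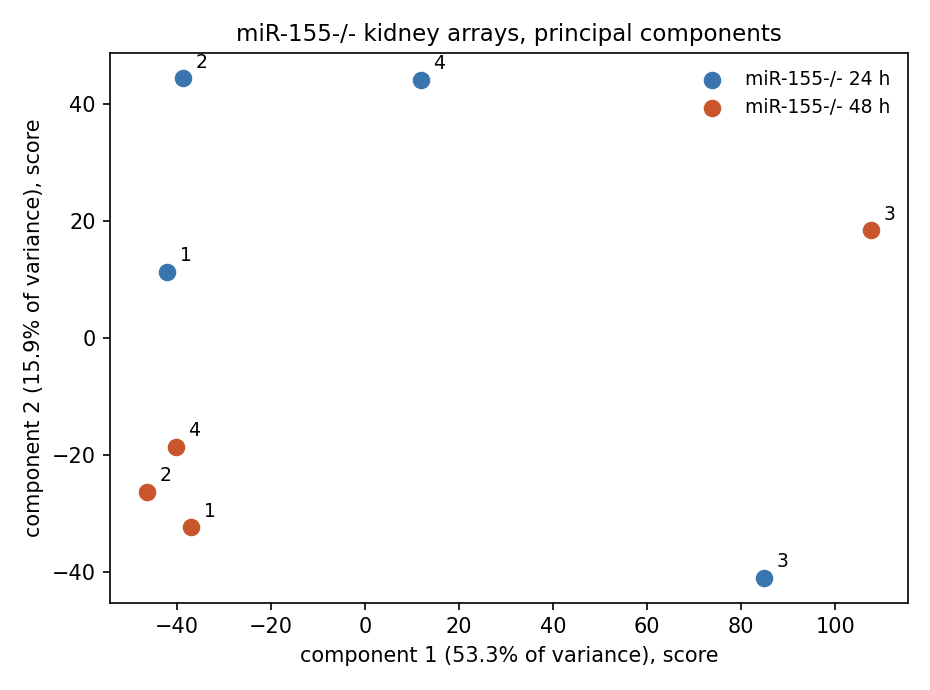
Each point is 1 miR-155-/- array, placed by its scores on the first 2 principal components of the log2 values of all genes tested and labelled with its replicate number. The replicate 3 arrays lie at 84.9 (24 h) and 107.7 (48 h) on component 1, the other 6 between -46.4 and 11.9, and component 2 separates 24 h from 48 h only among those 6.

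Of 23743 genes tested with limma (16454 with a symbol), 479 were higher at 48 h than at 24 h (2.02%) and 476 were lower (2%), together 4.02%, at a Benjamini-Hochberg adjusted p under 0.05 over all genes. Rises were larger than falls: 167 of the genes that rose and 19 of those that fell changed at least 2-fold. The 48 h and 24 h values did not overlap for 505 of the 955 called genes (52.9%), against 4.42% of all genes tested (2.04% higher and 2.38% lower at 48 h). Without both replicate 3 arrays, 1882 genes rose (7.93%) and 2565 fell (10.8%), and 617 and 68 of these changed at least 2-fold. This larger set held 911 of the 955 genes in the same direction, which is 95.4% of the calls on 8 arrays and 20.5% of the calls without the 2 arrays, and all 955 kept their sign. The median difference over all genes was -0.05 with all arrays and 0.01 without them. Counts of calls in the gene lists below are to be read beside the shares of all genes given here.

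The number of calls rested on single arrays and on pooling the spread over the 32 arrays. Fitted on the 8 arrays alone, 5 genes rose and 0 fell (787 and 701 at an unadjusted p under 0.05). Wild type fitted on its own arrays of both times gave 4177 calls, against 3110 with the pooled spread. In miR-155-/-, leaving out 1 array at a time gave 195 to 2241 genes higher and 162 to 2897 lower. The highest counts came without 48 h replicate 3 and the lowest without 48 h replicate 4. The higher count also moved by more than 1.5 times without 24 h replicate 3 (732), 24 h replicate 4 (272), 48 h replicate 1 (277) and 48 h replicate 2 (285), and the lower count without 24 h replicate 3 (927), 24 h replicate 4 (192) and 48 h replicate 1 (220). The arrays had been scanned on 2 days, with 2 arrays of each group on each day, and all 955 genes had the same sign within either day, as had 953 on the 1 slide that held both groups (24 h replicate 2 and 48 h replicate 4). The genes were called on these same arrays, so this agreement largely follows from their choice. Of the 70 genes named here that were called, 49 lost the call under at least 1 alternative other than the fit on 8 arrays, a turned sign not being counted as a loss.

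Several large fitted rises were in transcripts barely detected at 24 h, so their exact size rests on values below detection. Serpinb2 encodes a serpin that inhibits urokinase. Its values were -9.92, -10.04, -6.14 and -8.67 at 24 h and -3.50, -4.10, -4.93 and -3.35 at 48 h, a difference of 4.72 ± 0.85 (SE) with an adjusted p of 0.00184. All 48 h arrays were above all 24 h arrays, the 24 h replicate 3 array was the highest of its group, and the probe was well above background on 1 of the 4 arrays at 24 h. Its values on 24 h replicates 1, 2 and 4 lay below the dimmest probe detected on those arrays, so the fitted difference is not an exact fold. It was 5.89 without the replicate 3 arrays. Ifi202b, an interferon-inducible gene of the p200 family, was not well above background on any 24 h array and was so on all 4 at 48 h. Its measured values were -8.20, -10.00, -6.89 and -9.56 at 24 h and -3.78, -4.43, -4.59 and -3.62 at 48 h, at least 10.3-fold higher by the detection bound, with an adjusted p of 0.000359. The bound sets the 48 h mean against the higher of each 24 h value and the dimmest probe detected on that array. Atp13a4, a P5-type ATPase gene, rose by 3.1 ± 0.86 (adjusted p 0.0368), but its 48 h values of -2.23, -3.03, -7.39 and -2.31 show that replicate 3 stayed at the level of the 24 h group (-5.27, -7.20, -7.18 and -7.70).

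Genes of the skin's cornified envelope, the cross-linked protein layer of the epidermis, were among the largest rises. Sprr1a, a small proline-rich envelope precursor, read 0.08, -0.02, 0.78 and 0.32 at 24 h and 2.64, 2.4, 1.94 and 2.86 at 48 h, a difference of 2.17 ± 0.50 (adjusted p 0.0127). The groups did not overlap, and both replicate 3 arrays lay at the edge of their group nearest the other. Its relative Sprr2e rose by 4.38 ± 0.83, Kprp, a keratinocyte proline-rich protein, was at least 3.15-fold higher, and the late cornified envelope genes Lce1e and Lce1f rose by 3.86 ± 0.69 and 3.19 ± 0.67. The Sprr2 and Lce genes are families of close copies whose probes may not tell members apart, so each member's value is uncertain. Sprr2e and Lce1e were well above background on 2 and 1 of the 4 arrays at 24 h. Kprp, Psg26 and Serpinb9g lost their calls with normexp background correction. Crct1, of the same gene cluster, rose by 3.06 ± 0.77. Of 24 keratin and envelope genes tested, 4 rose and 0 fell (8 and 0 at an unadjusted p under 0.05), with a median of 0.54 against -0.05 over all genes. Those that rose were Sprr1a, Sprr2e and a further member each of the Sprr2 and Lce1 families, while Kprp, Lce1e, Lce1f and Crct1 lay outside the list. Leaving out the replicate 3 arrays, 7 rose, with a median of 0.73, where 2.02% of all genes rose with all arrays and 7.93% without replicate 3. Krt20, a keratin of injured tubules and of the urothelium, did not pass, at 0.52 ± 0.66, and its values overlapped widely (4.41, 3.85, 7.11 and 6.28 at 24 h, 5.44, 5.14, 7.55 and 5.61 at 48 h). Markers of other urinary tract epithelium had a median of 0.96, with 9 of 10 above 0 and 0 called (2 at an unadjusted p under 0.05), also without the replicate 3 arrays. Their summed linear level ran from 3331 to 5347 at 24 h and from 3705 to 6541 at 48 h. Their part in the result was not tested. Other large rises were in Mmp10, the matrix protease stromelysin-2 (2.72 ± 0.70, adjusted p 0.0242), Serpinb9g, a serpin well above background on 1 of the 4 arrays at 24 h (2.81 ± 0.55), Psg26, a pregnancy-specific glycoprotein gene (at least 2.1-fold), and Rbmy, a multicopy Y-linked RNA-binding protein gene whose copies the probe may share (3.80 ± 0.63).

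The promoter of Serpinb2 is shown because its transcript went from detection on 1 array to detection on all 4. Its match to TGANTCA is in capitals. This pattern is looser than the AP-1 site, which has C or G at the centre, since it takes any base there. The central base of this match is A. It spans chr1:107511173-107511472 (+ strand, GRCm38.p6, RefSeq), 250 bases before to 50 after 1 of its 2 listed start sites. The window printed is the first listed that holds TGANTCA, so the match was a condition of its choice.
Serpinb2: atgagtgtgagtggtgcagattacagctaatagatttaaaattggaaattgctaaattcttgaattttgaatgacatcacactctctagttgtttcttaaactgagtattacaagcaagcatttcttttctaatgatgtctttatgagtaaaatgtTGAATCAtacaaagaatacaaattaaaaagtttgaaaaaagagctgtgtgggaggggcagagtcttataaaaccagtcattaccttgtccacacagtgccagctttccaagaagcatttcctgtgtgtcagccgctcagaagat
Searched on both strands, TGANTCA was present in 7.81% of all 32851 promoters of this length, and 8.97% of all genes held it in any of their promoters. Among the keratin and envelope genes, 7 of the 19 with a listed promoter held it, and 3 of the 4 that rose. Of these 7, 6 are Sprr genes and 1 is Ivl, the envelope precursor involucrin. A match is a description of the letters in this window, not of binding.

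Chemokine and myeloid growth factor genes were among those that rose. Csf1, the growth factor of macrophages, read -0.84, -0.69, -0.59 and -0.49 at 24 h and 1.45, 0.89, -0.44 and 1.26 at 48 h, a difference of 1.44 ± 0.30 (adjusted p 0.00625). The 48 h replicate 3 array barely exceeded the 24 h group, while the other 48 h arrays stood well above it. Ccl2, which draws monocytes, read -3.42, -3.14, -2.4 and -3.47 at 24 h and -0.03, -0.91, -1.98 and -0.44 at 48 h, a difference of 2.27 ± 0.59 (adjusted p 0.0264), again with 48 h replicate 3 lowest of its group. Ccl7, a close relative of Ccl2, rose by 2.65 ± 0.75, and Csf2, encoding GM-CSF, was at least 1.38-fold higher. These 4 were the ones that rose of 27 chemokine, cytokine and adhesion genes tested, 0 fell (13 and 0 at an unadjusted p under 0.05), and the list's median was 0.74. For Ccl7 and Csf2 the 24 h replicate 3 array reached the 48 h values, and the Ccl7 probe was well above background on 1 of the 4 arrays at 24 h. Without the replicate 3 arrays 13 rose and 1 fell (Tnfrsf12a, the TWEAK receptor, named after its value was seen), at a median of 0.74. Beside this list's rises stand shares of all genes of 2.02% and, without replicate 3, 7.93%. Ccl17, a ligand of the receptor CCR4, lay outside that list. It read -5.67, -6.03, -4.67 and -5.64 at 24 h and -3.31, -3.78, -3.84 and -3.35 at 48 h, with no overlap and a difference of 1.93 ± 0.34 (adjusted p 0.00154). Ccl7 lost its call with the slide as a block, and Ccl7 and Csf2 with normexp background correction.

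Complement and acute phase genes divided by array. C4b, a complement component, rose by 1.26 ± 0.26 (adjusted p 0.0053), the 1 of 23 such genes to pass. C3, at the centre of the complement cascade, read 1.43, 1.83, 1.39 and 2.11 at 24 h and 4.18, 3.69, 0.60 and 3.93 at 48 h. Its 48 h replicate 3 array lay below all 24 h arrays, and the difference of 1.41 ± 0.47 missed the threshold (adjusted p 0.0915), while without the replicate 3 arrays it was 2.14 (adjusted p 3.71e-05). With those arrays left out 7 of the 23 rose, and the median went from 0.57 to 0.84. Among all genes 2.02% rose with all arrays and 7.93% without replicate 3. Lrg1, a STAT3-regulated glycoprotein, rose by 1.36 ± 0.33 and was the 1 of 14 genes of IL-6 type signalling to pass, against 4 with the replicate 3 arrays left out. Saa3, an acute phase apolipoprotein, Lcn2, the injury protein NGAL, and Cxcl1, a neutrophil chemokine, had differences of 1.12 ± 0.37, 1.96 ± 0.68 and 0.74 ± 0.36 and did not pass (adjusted p 0.0874, 0.104 and 0.282), but Lcn2 did with the replicate 3 arrays left out (adjusted p 0.0146).

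No leukocyte marker passed the test. Of 18 macrophage and monocyte markers 0 were called (1 higher and 1 lower at an unadjusted p under 0.05), with a median of -0.00. Of 14 neutrophil markers and 13 lymphocyte and NK markers 0 were called (0 and 1 at an unadjusted p under 0.05), with medians of 0.20 and -0.29. Leaving out the replicate 3 arrays also gave 0 calls in these 3 lists. The summed linear level of the macrophage markers ran from 21250 to 28720 at 24 h and from 18360 to 21350 at 48 h, and their mean log2 level was lowest on replicate 3 in both groups (-2.43 and -3.02, against -2.16 to -1.41 and -1.61 to -1.48 on the other arrays). Their part in the result was not tested. Fibroblast, endothelial and podocyte marker lists also held 0 calls, of 16, 16 and 14 genes (1, 3 and 0 at an unadjusted p under 0.05), and 0, 0 and 1 with the replicate 3 arrays left out. S100a8, an abundant neutrophil protein gene, read -5.60, -4.17, -2.19 and -3.89 at 24 h and -4.33, -4.11, -1.51 and -4.90 at 48 h, with replicate 3 highest in both groups.

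Of 22 interferon-stimulated genes tested, 7 rose and 0 fell (13 and 0 at an unadjusted p under 0.05), and all 22 had a difference above 0. Irf7, the transcription factor that amplifies type I interferon, read -1.73, -1.56, -1.22 and -1.62 at 24 h and -0.15, -0.54, -0.66 and 0.15 at 48 h, a difference of 1.23 ± 0.25 (adjusted p 0.00577) with no overlap. Isg15, a ubiquitin-like modifier, read 1.64, 1.45, 2.10 and 1.84 at 24 h and 2.79, 2.69, 2.32 and 3.14 at 48 h, a difference of 0.98 ± 0.22 (adjusted p 0.0125). Ifit1, which binds viral RNA, and Gbp3, a guanylate-binding GTPase, rose by 1.13 ± 0.25 and 0.87 ± 0.19. The other 3 of the 7 that rose, named after their values were seen, were the RNA sensor genes Ddx58 (0.43) and Ifih1 (0.46) and the XIAP-associated factor Xaf1 (1.07). The list's median was 0.60, and without the replicate 3 arrays 15 of the 22 rose with a median of 0.82. For Isg15 and Ifit1 the replicate 3 arrays were the highest at 24 h and the lowest at 48 h, and for Ifit1 they were all but level (-2.41, -2.14, -1.31 and -2.36 at 24 h, -0.91, -1.27, -1.30 and -0.19 at 48 h). Tap2, a peptide transporter of antigen presentation, rose by 0.41 ± 0.09, the 1 of 17 genes of the MHC pathway to pass, against 2 with the replicate 3 arrays left out. The shares of all genes that rose were 2.02% and 7.93%. With the slide as a block Xaf1 lost its call, and with normexp background correction Ddx58, Ifih1 and Tap2.

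The promoters of Isg15 and Ifit1 are shown because both genes rose in non-overlapping groups and both windows hold the interferon response element core, GAAA and again GAAA with any 2 bases between, searched on both strands, with matches in capitals. Overlapping matches run together, as the 3 of Isg15 do; Ifit1 holds 2. They span chr4:156200769-156201068 (- strand) and chr19:34640639-34640938 (+ strand) of GRCm38.p6, from RefSeq.
Isg15: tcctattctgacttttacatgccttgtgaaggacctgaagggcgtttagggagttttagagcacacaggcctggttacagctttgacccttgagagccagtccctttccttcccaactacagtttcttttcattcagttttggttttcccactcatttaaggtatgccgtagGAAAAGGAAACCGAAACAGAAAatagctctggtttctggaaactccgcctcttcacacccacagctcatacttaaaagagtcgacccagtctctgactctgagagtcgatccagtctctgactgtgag
Ifit1: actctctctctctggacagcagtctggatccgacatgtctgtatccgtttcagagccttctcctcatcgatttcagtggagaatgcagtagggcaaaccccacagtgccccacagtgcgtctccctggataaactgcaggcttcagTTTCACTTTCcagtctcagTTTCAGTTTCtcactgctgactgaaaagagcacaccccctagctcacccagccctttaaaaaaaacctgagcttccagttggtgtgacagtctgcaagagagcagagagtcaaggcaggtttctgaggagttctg
The core was present in 3.44% of all promoters, and 3.99% of all genes held it in any of their promoters. Of the 19 interferon-stimulated genes with a listed promoter 11 held it, among them 5 of the 7 that rose (Ddx58, Gbp3, Ifih1, Ifit1 and Isg15). Irf7 and Xaf1 also rose, and these letters are not in their windows.

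Tubular injury genes were higher at 48 h in part. Of 26 tested, 4 rose and 0 fell (11 and 0 at an unadjusted p under 0.05), with a median of 0.57. Vcam1, an adhesion molecule of tubules left unrepaired, read -1.78, -1.94, -2.27 and -2.50 at 24 h and 0.14, -0.60, -1.56 and -0.15 at 48 h, a difference of 1.58 ± 0.35 (adjusted p 0.00948). Anxa2, an annexin that gathers plasminogen at the cell surface, and S100a6, a calcium-binding protein, rose by 1.04 ± 0.27 and 1.5 ± 0.41 without overlap. Spp1, the secreted phosphoprotein osteopontin, rose by 0.97 ± 0.23 (adjusted p 0.0156), although 24 h replicate 4 (5.14, 5.24, 5.64 and 6.39) reached the 48 h values (6.31, 6.62, 6.95 and 6.41). Havcr1, the urinary injury marker KIM-1, read 1.46, 1.09, -0.82 and 1.41 at 24 h and 2.99, 2.63, 0.12 and 3.14 at 48 h. Replicate 3 was the lowest of its group at both times, and the difference of 1.44 ± 0.64 did not pass (adjusted p 0.23, and 0.0567 without those arrays). Clu, the chaperone clusterin, differed by 0.64 ± 0.21 (adjusted p 0.0869) and passed without the replicate 3 arrays (0.78, adjusted p 0.0247). Without them 9 of the 26 rose. Of 37 genes of TGF-beta signalling, matrix and plasmin, 2 rose and 0 fell (11 and 0 at an unadjusted p under 0.05), Mmp10 and Col4a2, a basement membrane collagen (0.68 ± 0.16, adjusted p 0.0163), and 6 rose with the replicate 3 arrays left out. The called shares of all genes were 4.02% with all arrays and 18.7% without replicate 3. Col4a2 lost its call with the slide as a block, and Spp1 with normexp.

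**Figure D2:**
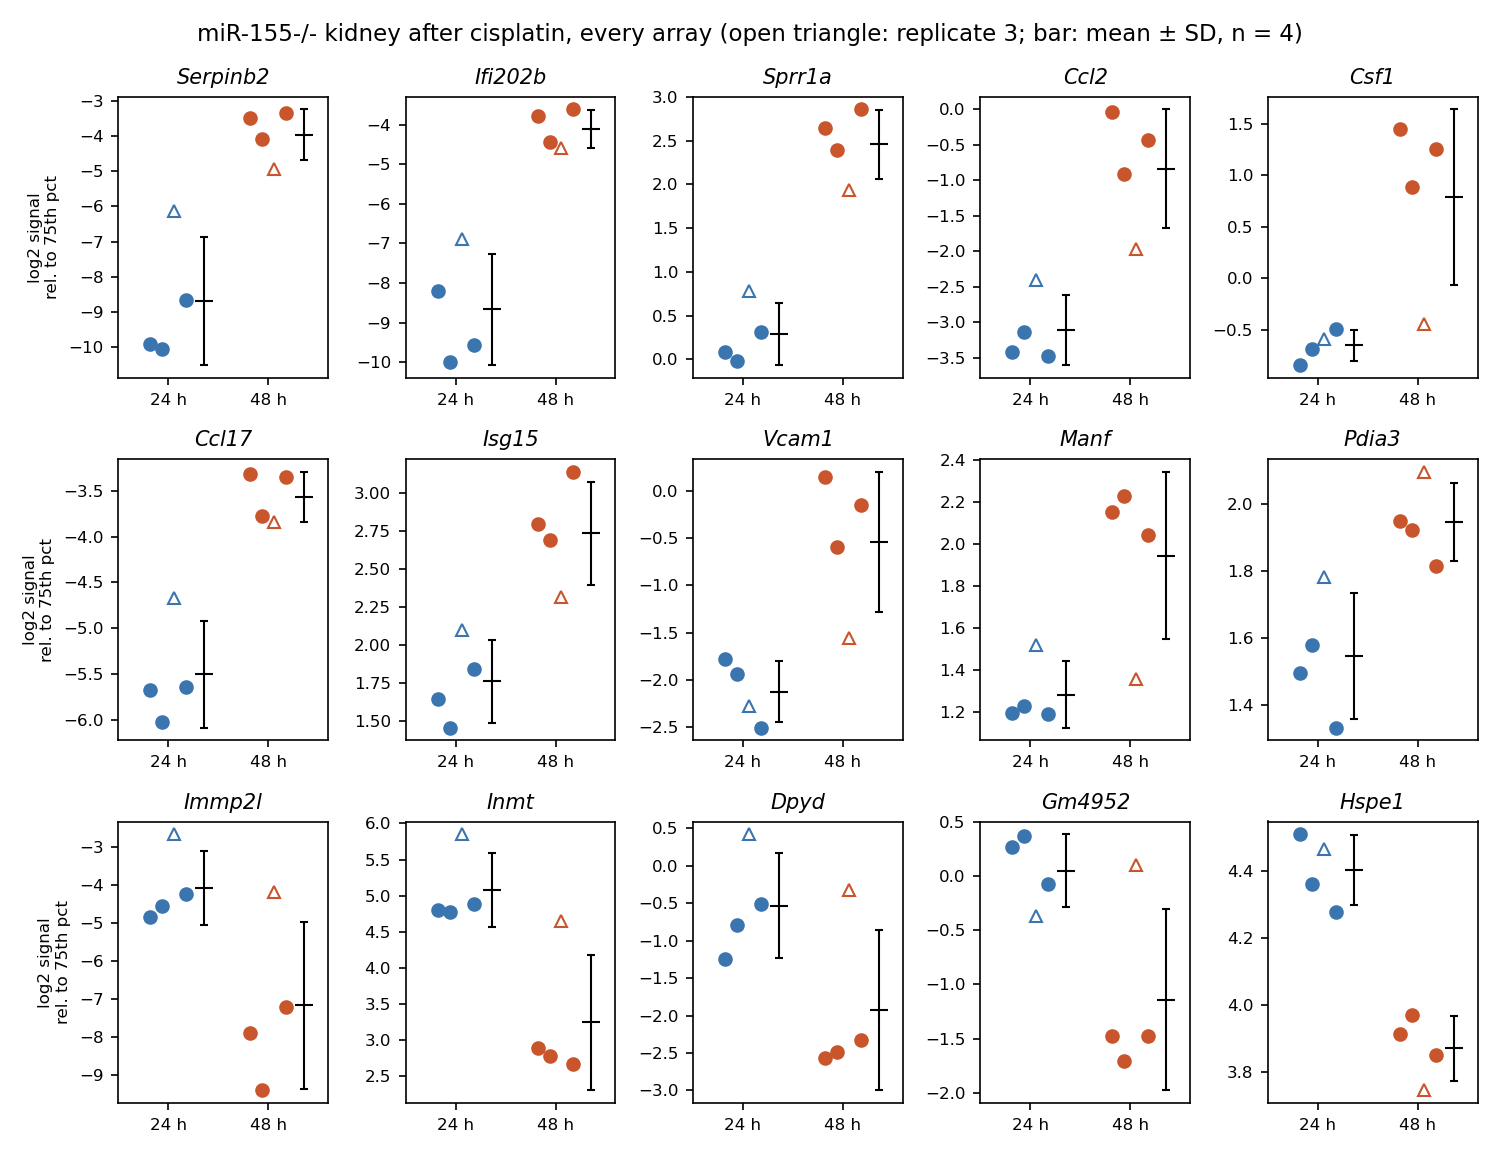
Log2 signal relative to the array's 75th percentile for 15 genes on each of the 8 miR-155-/- arrays at 24 h (blue) and 48 h (red), with the mean and SD of 4 arrays beside the points and replicate 3 as an open triangle. Replicate 3 at 48 h sits at or near the 24 h arrays for Csf1, Manf and Gm4952 and with the other 48 h arrays for Ifi202b, Ccl17 and Hspe1.

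Of 21 genes of ER chaperones and the unfolded protein response, 4 rose and 0 fell (11 and 0 at an unadjusted p under 0.05). Pdia3, an ER disulfide isomerase, read 1.49, 1.58, 1.78 and 1.33 at 24 h and 1.95, 1.92, 2.10 and 1.81 at 48 h, a difference of 0.40 ± 0.09 (adjusted p 0.0126). Manf, a secreted ER stress protein, rose by 0.66 ± 0.17, with 48 h replicate 3 inside the 24 h range (1.19, 1.23, 1.52 and 1.19 at 24 h, 2.15, 2.23, 1.35 and 2.04 at 48 h). Sdf2l1, an ER chaperone cofactor, and Atf6, a sensor of unfolded proteins, rose by 0.69 ± 0.19 and 0.71 ± 0.19. Of the 21, 19 had a difference above 0, with a median of 0.26. With the slide as a block all 4 missed the threshold (Pdia3 0.0575, Manf 0.06, Atf6 0.0677 and Sdf2l1 0.0584, adjusted p), and with normexp Pdia3 and Manf did. Without the replicate 3 arrays 11 rose with a median of 0.43, where 2.02% of all genes rose with all arrays and 7.93% without replicate 3. The mean log2 level of the list on single arrays was 1.77 to 2.0 after saline, 1.22 to 1.45 at 24 h and 1.41 to 1.70 at 48 h. The ER stress response element, CCAAT and CCACG with any 9 bases between, was present on either strand in 0.119% of all promoters. In any of their promoters, 0.137% of all genes held it. It was in 8 of the 18 list genes with a listed promoter, but in 0 of the 2 called genes among them, Pdia3 and Sdf2l1.

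Hspe1 and Hspd1, the paired mitochondrial chaperonins, fell by small and even amounts. Hspe1 read 4.51, 4.36, 4.46 and 4.28 at 24 h and 3.91, 3.97, 3.75 and 3.85 at 48 h, a difference of -0.53 ± 0.08 (adjusted p 0.00049), and Hspd1 differed by -0.49 ± 0.09 (adjusted p 0.00154). The groups did not overlap for either gene, and the replicate 3 arrays lay within or close to their groups. They were the 2 of 13 heat shock genes that fell, 0 rose (1 at an unadjusted p under 0.05), and the median was -0.23. With the replicate 3 arrays left out 5 of the 13 fell. Gclm, the modifier subunit of glutathione synthesis, read 0.88, 1.22, 1.21 and 0.99 at 24 h and 0.66, 0.65, 0.60 and 0.45 at 48 h, a fall by 0.49 ± 0.10 on the log2 scale (adjusted p 0.00469). It was the 1 of 25 Nrf2 and glutathione genes to pass, with 10 lower and 1 higher at an unadjusted p under 0.05 and a median of -0.26. Hmox1, heme oxygenase 1, and Txnrd1, a thioredoxin reductase, differed by -0.73 ± 0.33 and -0.55 ± 0.17 and did not pass. Without the replicate 3 arrays 10 of the 25 fell and 1 rose, with Hmox1 at -0.92 and Txnrd1 at -0.73. Among all genes 2% fell with all arrays and 10.8% without replicate 3.

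The largest fitted fall was in Immp2l, encoding a subunit of the mitochondrial inner membrane peptidase; the gene is very long. It read -4.86, -4.56, -2.68 and -4.25 at 24 h and -7.89, -9.40, -4.19 and -7.22 at 48 h, a difference of -3.09 ± 0.65 (adjusted p 0.00655). It was well above background on 2 of the 4 arrays at 48 h, and the 48 h replicate 3 array lay above all 24 h arrays but replicate 3. Inmt, a methyltransferase of indoleamines, read 4.81, 4.78, 5.85 and 4.88 at 24 h and 2.89, 2.78, 4.64 and 2.67 at 48 h, a difference of -1.83 ± 0.38 (adjusted p 0.00642), with replicate 3 highest in both groups and no overlap. Dpyd, the first enzyme of pyrimidine breakdown, read -1.25, -0.79, 0.42 and -0.51 at 24 h and -2.56, -2.48, -0.32 and -2.33 at 48 h, a difference of -1.40 ± 0.33 (adjusted p 0.0145). The 48 h replicate 3 array lay above the 24 h arrays other than replicate 3, and without the replicate 3 arrays the difference was -1.61. Fhit, a dinucleotide hydrolase encoded by a fragile-site gene, fell by 1.16 ± 0.33 (adjusted p 0.0414). The dim genes Fhit, Pnliprp1, Fam166a and Ppp1r3e turned to a higher 48 h value with normexp background correction. With the slide as a block Immp2l (adjusted p 0.0541), Inmt (0.0524) and Fhit lost their calls.

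Pvalb, the calcium-binding parvalbumin of the early distal convoluted tubule, read -1.46, -1.43, -0.07 and -0.60 at 24 h and -2.43, -2.93, -1.04 and -2.31 at 48 h, a difference of -1.28 ± 0.32 (adjusted p 0.0219), with 48 h replicate 3 inside the 24 h range. It was the 1 of 26 thick limb and distal tubule genes to be called, against 2 higher and 1 lower with the replicate 3 arrays left out. The called shares of all genes were 4.02% and 18.7%. Gm4952 differed by -1.19 ± 0.25, although 48 h replicate 3 (-1.48, -1.71, 0.10 and -1.48) lay among the 24 h values (0.26, 0.37, -0.37 and -0.07), and without the replicate 3 arrays by -1.74. Mymx, a muscle fusion peptide gene, and Pnliprp1, a pancreatic lipase relative, fell by 1.09 ± 0.22 and 1.17 ± 0.26 without overlap. The remaining genes among the 15 largest falls, Fam166a, Tssk6, Csrnp2, Fjx1, Hpdl, Ldc1 and Ppp1r3e, differed by -0.99 to -1.23. With the slide as a block Pvalb, Csrnp2, Fjx1 and Ppp1r3e lost their calls, and with normexp Immp2l, Pvalb and Tssk6. Of these, Ppp1r3e, a glycogen-targeting phosphatase subunit, lost its call without the replicate 3 arrays (-0.35, adjusted p 0.155), its 24 h replicate 3 array being the highest (-5.08, -5.05, -3.54 and -5.32) and its 48 h replicate 3 array the lowest (-5.85, -5.37, -7.05 and -5.29).

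Genes of fat metabolism fell in small number. Acot4 and Acot1, acyl-CoA thioesterases of peroxisomes and cytosol, fell by 0.58 ± 0.13 and 0.79 ± 0.23, and Cpt2, the inner mitochondrial carnitine acyltransferase, by 0.46 ± 0.13 (adjusted p 0.0121, 0.0434 and 0.0423). These were the 3 of 29 fatty acid oxidation and PPAR alpha genes to fall, 0 rose (0 at an unadjusted p under 0.05), and the median was -0.25. With the replicate 3 arrays left out 6 fell. Among all genes 2% fell with all arrays and 10.8% without replicate 3. Of 17 fatty acid synthesis genes, Gpam, the first enzyme of glycerolipid synthesis, and Mlxipl, the glucose-responsive factor ChREBP, fell by 0.90 ± 0.17 and 0.62 ± 0.16, and Acaca, acetyl-CoA carboxylase, rose by 0.84 ± 0.22, against 4 higher and 2 lower with the replicate 3 arrays left out. Cpt2, Acot1 and Acaca lost their calls with the slide as a block, and Gpam with normexp. For Acaca the 48 h replicate 3 array lay within the 24 h range (-0.86, -1.14, -0.65 and -1.23 at 24 h, 0.07, 0.33, -1.15 and 0.25 at 48 h). Pck1, the gluconeogenic enzyme of the proximal tubule, read 4.44, 4.20, 5.24 and 5.2 at 24 h and 6.64, 6.50, 3.83 and 6.58 at 48 h. Its 48 h replicates 1, 2 and 4 exceeded all 24 h arrays and its 48 h replicate 3 array lay below them all, so that the difference of 1.12 ± 0.37 did not pass (adjusted p 0.0893), while without the replicate 3 arrays it was 1.97 (adjusted p 5.27e-07).

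Proximal tubule transport genes read differently with and without replicate 3. With all arrays 0 of 29 proximal tubule transport genes rose (1 at an unadjusted p under 0.05) and 1 fell, with a median of 0.07. Without the replicate 3 arrays 12 rose and 1 fell, with a median of 0.46. Of all genes 2.02% rose and 2% fell with all arrays, at a median of -0.05. These shares were 7.93% and 10.8%, at a median of 0.01, without the replicate 3 arrays. Cubn, the endocytic receptor cubilin, read 3.04, 2.74, 3.74 and 2.64 at 24 h and 4.14, 4.10, 2.42 and 3.93 at 48 h, a difference of 0.61 ± 0.25 (adjusted p 0.192) with all arrays and 1.25 (adjusted p 1.93e-06) without them. Slc5a12, a lactate transporter, read 3.46, 2.77, 1.37 and 1.07 at 24 h and 4.24, 4.37, -0.46 and 4.09 at 48 h, and replicate 3 was the lowest 48 h array for both genes. The mean log2 level of the 29 genes was 3.21 to 3.62 after saline, 1.99 to 2.60 at 24 h, 2.69 to 2.85 on the other 48 h arrays and 1.24 on 48 h replicate 3. Slc22a6, the organic anion transporter OAT1, was the gene that fell in both analyses, from 5.68, 5.50, 5.68 and 5.87 at 24 h to 5.17, 5.33, 5.05 and 5.15 at 48 h (difference -0.51 ± 0.13, adjusted p 0.0259), and the related Slc22a7 fell by 0.86 ± 0.23. In the thick limb Umod differed by 0.21 ± 0.30 with all arrays and 0.69 without the replicate 3 arrays, and Egf, the urinary growth factor, by -0.82 ± 0.28 and -0.66 (adjusted p 0.801, 0.0283, 0.103 and 0.114).

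DNA damage and proliferation lists held 4 calls in all, 1 of 29 replication genes and 3 of 27 repair genes, where 4.02% of all genes were called, and counts this small do not set these lists apart. Of 35 p53 targets 0 were called (2 higher and 3 lower at an unadjusted p under 0.05), with a median of -0.03. With the replicate 3 arrays left out 2 rose and 4 fell, where 18.7% of all genes were called. Cdkn1a, the cell cycle inhibitor p21, read 3.01, 2.81, 4.30 and 3.94 at 24 h and 3.05, 2.94, 4.54 and 3.07 at 48 h, with replicate 3 highest in both groups. Mdm2, the p53 ubiquitin ligase, and Gdf15, a secreted stress cytokine, differed by -0.21 ± 0.14 and -0.58 ± 0.21 (adjusted p 0.476 and 0.123), and Gdf15 passed with the replicate 3 arrays left out (-0.68, adjusted p 0.0459). The 21 immediate early and AP-1 genes gave 0 calls and 0 at an unadjusted p under 0.05, and 1 call, Atf3, with the replicate 3 arrays left out (1.17, adjusted p 0.0362). Fos differed by 0.14 ± 0.50 and Atf3 by 0.78 ± 0.47, and the mean level of this list on replicate 3 was 1.64 at 24 h and 1.37 at 48 h against -0.56 to 0.46 and 0.01 to 0.09 on the other arrays. Mki67, the proliferation antigen, differed by 0.13 ± 0.32, and 0 of 24 mitosis genes were called (1 at an unadjusted p under 0.05), also with the replicate 3 arrays left out.

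Single genes of replication, repair and survival did pass. Pola1, the polymerase alpha catalytic subunit, rose by 0.76 ± 0.20, the repair genes Brca2 and Fanci by 0.51 ± 0.15 and 1.05 ± 0.31, and Ercc2, a helicase of nucleotide excision repair, fell by 0.34 ± 0.09. These were the calls of 29 replication and 27 repair genes. With the replicate 3 arrays left out 4 replication genes rose and 4 fell, and 3 repair genes rose and 6 fell. Brca2 and Ercc2 lost their calls with the slide as a block, and Pola1, Brca2, Fanci and Cflar with normexp. Brca2 missed the threshold without the replicate 3 arrays (adjusted p 0.0814). The caspase-8 regulator Cflar read 1.17, 1.18, 1.25 and 1.40 at 24 h and 1.74, 1.72, 1.53 and 1.70 at 48 h, a rise of 0.42 ± 0.09 (adjusted p 0.00677), and Birc3, an inhibitor of apoptosis, rose by 0.75 ± 0.17 (adjusted p 0.0126), both without overlap. They were the 2 of 27 cell death genes to pass, and with the replicate 3 arrays left out 4 rose and 3 fell. Beside the replication, repair and cell death counts stand called shares of all genes of 4.02% and, without replicate 3, 18.7%.

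**Figure D3:**
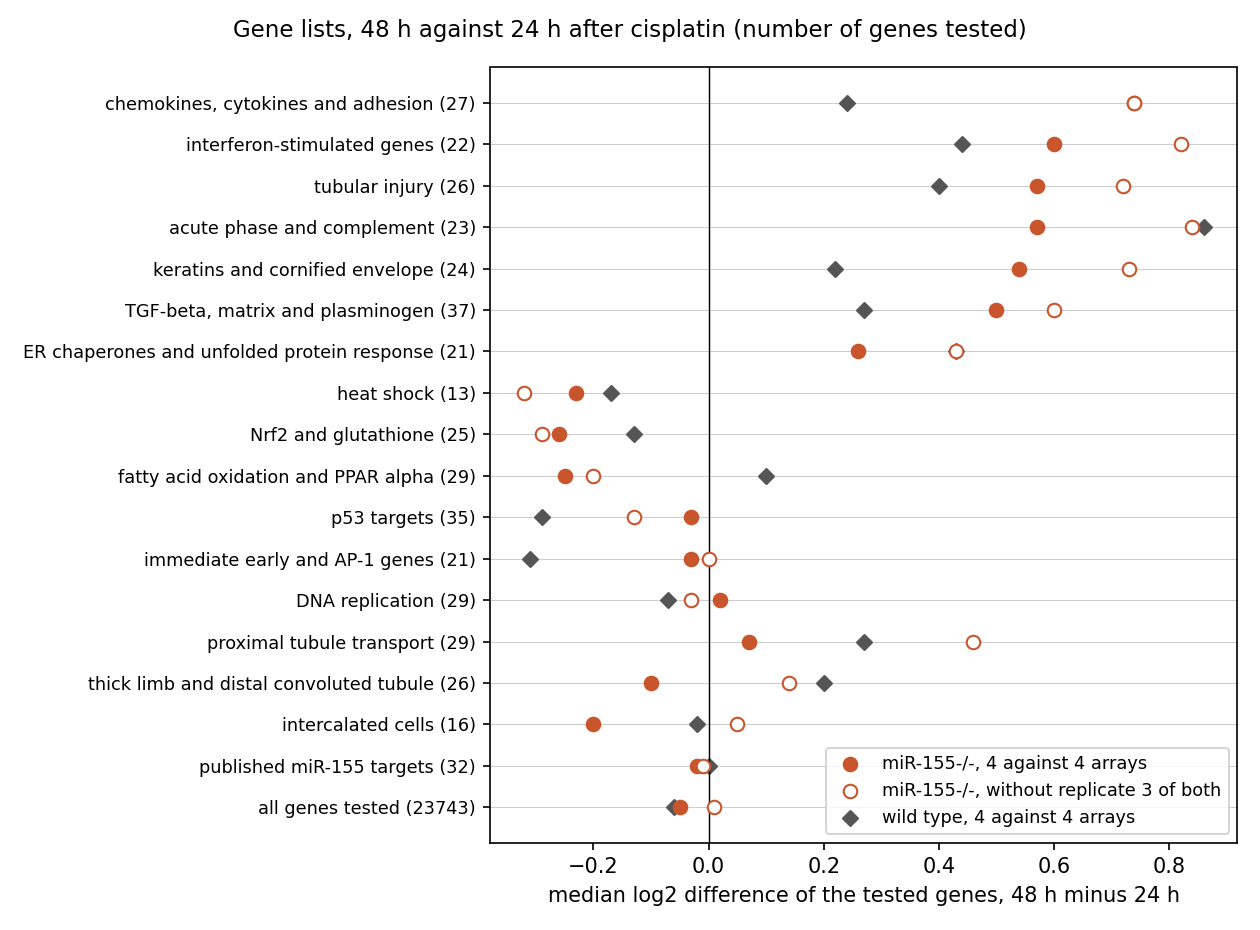
Median log2 difference, 48 h minus 24 h, over the tested genes of 17 lists and over all genes, for miR-155-/- with all arrays (filled red), miR-155-/- without replicate 3 of both groups (open red) and wild type (grey diamonds). Chemokine, interferon, injury, acute phase and envelope lists lie to the right of 0 in all 3, and the proximal tubule transport list moves from 0.07 to 0.46 when the replicate 3 arrays are left out.

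The replicate 3 arrays lay far from their groups for tubular and inflammatory transcripts. The genes in this paragraph were taken for their distance from the rest and carry no test. Cyp24a1, the vitamin D catabolic enzyme of the proximal tubule, was lowest on replicate 3 at 24 h (2.94, 2.64, -2.42 and 1.54) and at 48 h (3.09, 2.52, -2.01 and 2.51). Il6, encoding the cytokine interleukin-6, read -9.83, -9.07, -1.95 and -8.67 at 24 h and -5.62, -7.01, -2.36 and -6.15 at 48 h, with replicate 3 the highest at both times, and was well above background on 1 of the 4 arrays at 24 h. Grp, gastrin-releasing peptide, was likewise highest on replicate 3, at -7.71, -7.88, 0.74 and -4.07 and -6.45, -6.43, -0.29 and -5.95. At 24 h Slc14a2, the urea transporter of the inner medulla (1.80, 2.89, -1.78 and 1.92), and the growth factor gene Igf1 (-2.80, -2.24, -8.08 and -4.36) were lowest on replicate 3. At 48 h Serpina10 (2.96, 3.12, -2.74 and 3.32), a serpin that inhibits clotting factors, and Gc (5.10, 5.17, 0.43 and 5.0), the vitamin D binding protein, were lowest on it. Hemoglobin transcripts stood out on 48 h replicate 3. Hbb-bs, an adult beta globin with close copies, read -5.31, -3.52, -1.47 and -3.77 at 24 h and -6.26, -4.88, 0.31 and -9.77 at 48 h, and Alas2, the erythroid heme synthesis enzyme, -6.23, -6.00, -3.49 and -5.75 and -7.20, -6.18, -1.60 and -7.82. The summed level of the red cell markers ran from 17790 to 144400 at 48 h and from 27530 to 49290 at 24 h. Their part in the result was not tested.

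For most genes called without the replicate 3 arrays, 48 h replicate 3 did not lie where its label would place it. Of the 1881 rising genes with a value on it, 28.7% were on the 48 h side of the midpoint between the 24 h and 48 h means of the other arrays, and of the 2565 falling genes 29%. Its median position was -0.20 for rising and -0.23 for falling genes, where 0 is the 24 h mean and 1 the 48 h mean of the other arrays. The 24 h replicate 3 array had median positions of -0.05 and -0.07, with 28.9% of rising and 29.2% of falling genes on the 48 h side. RNA quality is given in the labels only as integrity numbers above 8 for all samples.

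In wild type kidney 1396 genes rose over the same interval (5.88%) and 1714 fell (7.22%), together 13.1% of those tested. These 3110 calls outnumber the 955 in miR-155-/- with all arrays and are fewer than the 4447 without replicate 3. The last count leaves out divergent arrays of miR-155-/- only, so it is not a like comparison. With array weights on all arrays, wild type gave 7308 calls and miR-155-/- 2014 higher and 2638 lower. Of the 955 miR-155-/- calls, 707 were also called in wild type in the same direction, 74% of the miR-155-/- calls and 22.7% of the wild type calls. The same sign was seen there for 98.7% of the 955. Without the replicate 3 arrays the shared set was 2012 genes, 45.2% of the miR-155-/- calls and 64.7% of the wild type calls. Across all genes tested the 2 genotypes' differences correlated at r = 0.674, and at 0.732 without the replicate 3 arrays. Genes are not independent replicates, and both genotypes share the platform and the scaling. The difference between the genotypes' changes was tested directly and was called for 0 genes with limma (975 at an unadjusted p under 0.05, 4.11% of those tested; 1083 without the replicate 3 arrays). The genotypes share no array in this comparison.

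**Figure D4:**
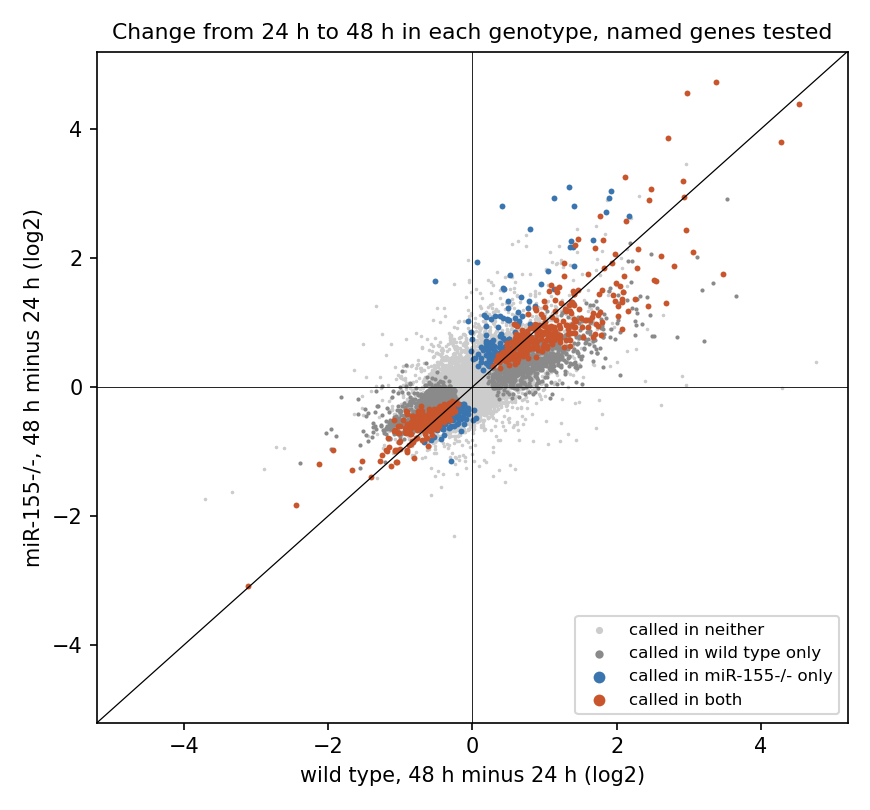
Each point is 1 named gene, placed by its log2 difference, 48 h minus 24 h, in wild type (horizontal) and miR-155-/- (vertical), coloured by the genotypes in which it was called. The line marks equal change. The points lie along the line (r = 0.674 over all genes tested), and 707 of the 955 miR-155-/- calls, counting genes without a symbol, were shared.

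None of the genes with the smallest p for the genotype difference reached an adjusted p under 0.05. Ccl17 had a difference of 1.93 ± 0.34 in miR-155-/- and 0.06 in wild type. Gbe1, the glycogen branching enzyme, differed by 0.39 ± 0.14 in miR-155-/- and 1.29 in wild type, and Sqstm1, the autophagy receptor p62, by -0.37 ± 0.10 and -0.92. In miR-155-/- Gbe1 was called with the replicate 3 arrays left out (0.65, adjusted p 0.000584), and Sqstm1 lost its call with the slide as a block. Lancl2 and Mnd1 had 0.40 and 0.32 in miR-155-/- against 1.19 and 1.42 in wild type, and Bex3, Rnd2, Wdsub1 and Nat8f4 lay between -0.11 and 0.08 in miR-155-/- against -0.86 to -0.42 in wild type. Lman1, an ER cargo receptor, had 0.09 against 0.51. In each case the adjusted p of the genotype difference was 1.

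Published miR-155 targets, a list of 32 tested genes, gave 0 calls (2 higher and 1 lower at an unadjusted p under 0.05) and a median of -0.02, against -0.05 over all genes. With the replicate 3 arrays left out 2 were called higher and 1 lower, where 18.7% of all genes were called. Ikbke, a kinase of interferon induction, read -4.47, -4.85, -4.60 and -5.40 at 24 h and -3.46, -3.99, -5.40 and -3.71 at 48 h, a difference of 0.69 ± 0.30 that did not pass with all arrays (adjusted p 0.216) and did without the replicate 3 arrays (1.18, adjusted p 0.00236). Rheb, the activator of mTORC1, differed by -0.41 ± 0.16 (adjusted p 0.154). In wild type the same list had a median of -0.00, with 1 gene higher and 2 lower.

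The other time points placed the 24 h to 48 h step within the course. Serpinb2 in miR-155-/- kidney averaged -9.87 ± 0.19 after saline, -8.69 ± 1.81 at 24 h, -3.97 ± 0.72 at 48 h and -3.38 ± 1.30 at 72 h (mean ± SD, n = 4), the saline values lying below the dimmest probes detected. Ccl2 averaged -4.12 ± 0.35 after saline and -0.50 ± 0.66 at 72 h. Isg15 stood at 0.68 ± 0.22 after saline and 2.66 ± 0.30 at 72 h, so that its 48 h and 72 h means differed by less than 1 SD. Sdf2l1 was -0.17 ± 0.23 after saline, -0.68 ± 0.23 at 24 h, 0.01 ± 0.23 at 48 h and -0.50 ± 0.24 at 72 h, highest of the cisplatin groups at 48 h. Inmt stood at 6.55 ± 0.23 after saline and was lower at each later time, down to 1.49 ± 0.96 at 72 h. These means were not tested against each other here beyond the 48 h and 24 h pair.

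**Figure D5:**
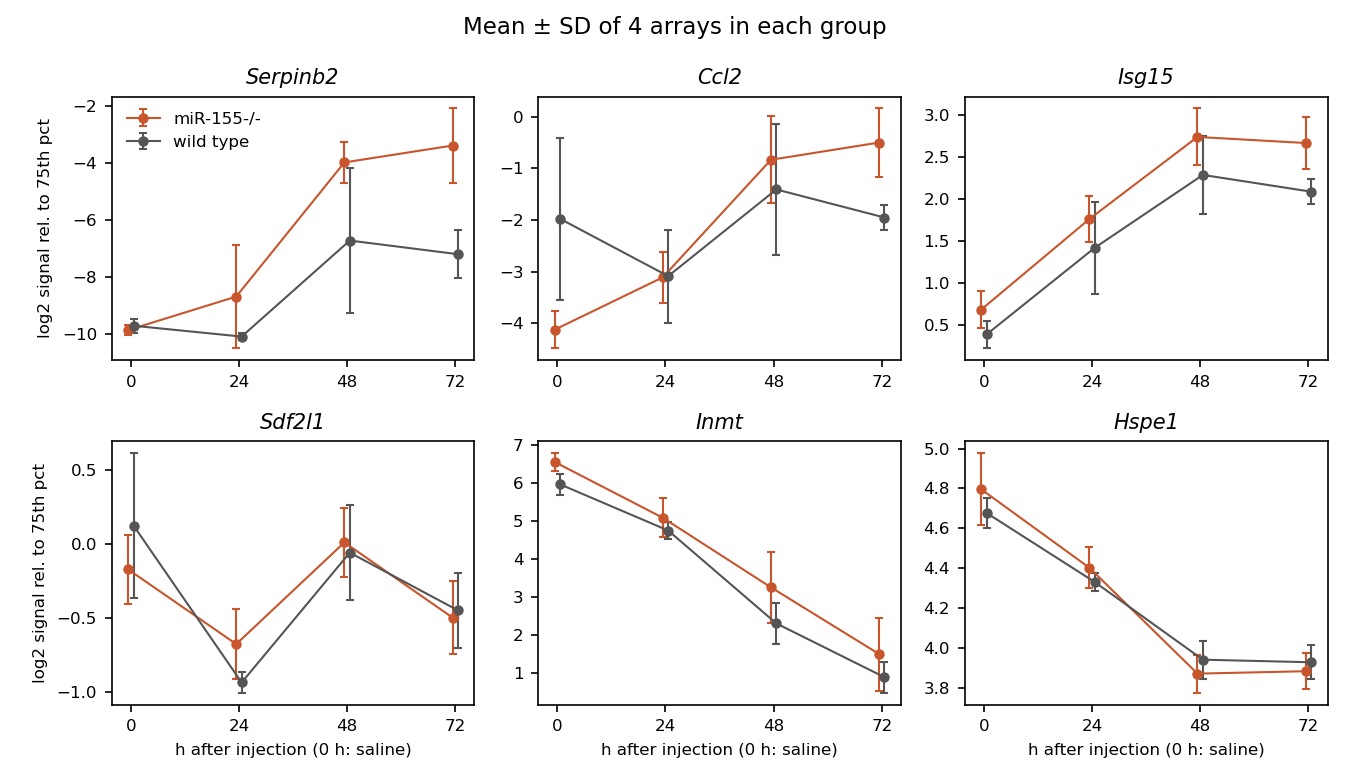
Mean and SD of the log2 signal relative to the array's 75th percentile (4 arrays per group) against hours after injection for 6 genes in miR-155-/- (red) and wild type (grey) kidney, with saline-injected mice at 0 h. Serpinb2 in miR-155-/- averaged -3.97 at 48 h against -6.72 in wild type, and Inmt is lower at each later time in both genotypes. The genotypes were not tested against each other at 48 h here. The difference between their changes from 24 h to 48 h was called for 0 genes with limma.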

How the data were processed

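Kidney RNA was hybridised in 1 colour (Cy3) to Agilent mouse arrays, 1 array per animal. Per the file headers, the deposited processed signal is a linear intensity from which Feature Extraction had subtracted background. The authors' deposited value table served as an alternative. Its values were within 1% of this intensity times 1 factor per array for 81.8% to 89.5% of spots on the 8 arrays. The log2 intensity of non-control spots had each array's 75th percentile subtracted (1531 to 2647 intensity units on the 8 arrays). Spots were averaged per probe, and the brightest probe stood for a gene. A gene entered the test where at least 1 of the 8 groups had it well above background on each of its 4 arrays and each group had at least 3 values.

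Group means over 32 arrays were fitted with limma 3.58.1 (R 4.3.3) and p-values adjusted by Benjamini-Hochberg over all 23743 genes. On simulated data for this comparison with 23743 genes, 60% of changes of 1 and 94% of changes of 2 (log2) were recovered, and 6 of 160 calls were false. These shares hold for the simulated data only, and recovery on the measured arrays was not tested. Among the measured arrays, miR-155-/- replicate 3 had array weights of 0.101 at 24 h and 0.0632 at 48 h. The number of arrays limits the precision. Normexp (offset 50) used the median spot signal, because the files hold no mean signal. Genes were named by fixed rules: anchors, the 15 largest rises and falls, 10 each without replicate 3, up to 4 per list by p, 10 by the genotype difference, and those farthest off on replicate 3; of these, the ones described here were selected. The genes and lists were chosen with earlier results of these data known. Same-numbered arrays correlated at 0.554, 0.309, 0.588 and -0.0784 in their deviations from the group means, so the numbers were not taken as pairs.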

Additional observations from a re-analysis of the deposited data

Results flagged for a closer look

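Single arrays far from the other 3 of their group were sought among the named genes with Dixon's test at the 95% level, by which chance picks about 5% of groups. Of 103 genes at 24 h, 8 had such an array, in 8 cases replicate 3, and of 103 at 48 h, 16, in 15 cases replicate 3. The 10 genes chosen for the distance of replicate 3 were left out, but Tnfrsf12a was named for its fall without replicate 3, and others, such as Dpyd, Inmt, Gm4952 and Atp13a4, rank high in that fit too, so these counts cannot be read against the chance share. Values are log2 relative to the array's 75th percentile, each followed by the range of the 3 other arrays.

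At 24 h replicate 3 lay above the others for Csf2 (-7.56; -9.89 to -9.50), Inmt (5.85; 4.78 to 4.88), Kprp (-6.84; -10.00 to -9.63), Manf (1.52; 1.19 to 1.23), Mki67 (-2.72; -3.61 to -3.50) and Ppp1r3e (-3.54; -5.32 to -5.05). It lay below them for Havcr1 (-0.82; 1.09 to 1.46) and Mlxipl (3.19; 4.05 to 4.10). At 48 h it lay above for Birc3 (-1.38; -2.12 to -2.0), Cdkn1a (4.54; 2.94 to 3.07), Dpyd (-0.32; -2.56 to -2.33), Fjx1 (-0.05; -1.42 to -1.34), Gm4952 (0.10; -1.71 to -1.48), Hpdl (-0.77; -2.11 to -2.0), Inmt (4.64; 2.67 to 2.89), Tnfrsf12a (5.77; 4.06 to 4.33), Txnrd1 (5.29; 4.43 to 4.54) and Wdsub1 (-0.64; -1.12 to -1.08). It lay below at 48 h for Atp13a4 (-7.39; -3.03 to -2.23), C3 (0.60; 3.69 to 4.18), Cubn (2.42; 3.93 to 4.14), Havcr1 (0.12; 2.63 to 3.14) and Pck1 (3.83; 6.50 to 6.64). Csf2 and Kprp on all 24 h arrays, and Atp13a4 on 48 h replicate 3, lay below the dimmest probe detected on the array, so their gaps compare signals under detection limits that differ between arrays. The injury marker Havcr1 and the methyltransferase gene Inmt stood out on replicate 3 at both times. The 1 gene with another array apart was Gpam, whose 48 h replicate 2 was the highest (-2.66, against -2.97 to -2.92).

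Of the mean levels of 43 gene lists, 4 at 24 h and 13 at 48 h had an array apart, 3 and 12 of them on replicate 3. The lists share the same arrays, and replicate 3 had been picked out on these same data. These list counts too cannot be read against the chance share. At 24 h replicate 3 was highest for adrenal cortex markers (-3.42; -4.43 to -4.31), and lowest for DNA repair (-1.22; -0.96 to -0.91) and intercalated cells (-1.09; 0.25 to 0.44). At 48 h it was highest for DNA replication (-1.08; -1.57 to -1.51), Nrf2 and glutathione (3.19; 2.76 to 2.81) and immediate early and AP-1 genes (1.37; 0.01 to 0.09). It was lowest at 48 h for ER chaperones and unfolded protein response (1.41; 1.66 to 1.70), MHC and antigen processing (0.34; 0.86 to 0.96), intercalated cells (-1.92; 0.45 to 0.55), lymphocyte and NK markers (-5.65; -4.47 to -4.26), macrophage and monocyte markers (-3.02; -1.61 to -1.48), metal and drug handling (1.52; 2.06 to 2.09), proximal tubule enzymes and regulators (3.36; 4.15 to 4.24), proximal tubule transport (1.24; 2.69 to 2.85) and published miR-155 targets (-0.25; 0.03 to 0.08). Replicate 4 was highest for p53 targets (1.5; 1.17 to 1.21) at 24 h and for fibroblast and pericyte markers (-1.48; -1.91 to -1.85) at 48 h. Intercalated cell genes, which encode the acid and base transport of the collecting duct, were lowest on replicate 3 at both times.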

How the results depend on the processing

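Counts of genes higher and lower, 479 and 476 with all arrays, became 1882 and 2565 without both replicate 3 arrays, 1790 and 2427 with the slide as a block besides, 2014 and 2638 with array weights, 943 and 1362 with normexp background correction, and 5 and 0 fitted on the 8 arrays alone (787 and 701 at an unadjusted p under 0.05). Leaving out 1 array gave 195 to 2241 and 162 to 2897. The other settings kept both counts within 1.5 times. Wild type calls, 3110, became 7308 with array weights, 1514 with normexp and 1762 to 3090 without 1 wild type array, the lowest without 24 h replicate 2 and next without 24 h replicate 4 (2029). The genotype difference was called for 0 genes with limma under all 31 alternatives (433 to 2054 at an unadjusted p under 0.05). With the replicate block, 544 genes were higher and 524 lower in miR-155-/-, 3563 were called in wild type and 0 for the genotype difference; 2 of the 4 arrays at 48 h correlated best with their own number.

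Normexp moved the median of all genes from -0.05 to 0.31 and turned Fhit to 0.17, Pnliprp1 to 0.28, Fam166a to 0.55 and Ppp1r3e to 0.26, of which only Fam166a lay above that shift; the cause was not tested. Of 70 named genes called, 68 lost the call on the 8 arrays alone, 20 with the slide as a fixed block, 19 with normexp, and 2 without the replicate 3 arrays (Ppp1r3e and Brca2). The 19 do not include the genes whose sign turned. Under every alternative but the 8 arrays alone, 21 were never counted as losing the call. A turned sign was not counted as a loss, and Pnliprp1 is among the 21 although its sign turned under normexp. The analysis by scan day and the slide block without replicate 3 were chosen after seeing the data. Genes near background, such as Serpinb2 and Ifi202b at 24 h, have folds that the dimmest measurable signal limits.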

Other observations

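Further lists held 0 calls between 24 h and 48 h in miR-155-/- kidney with all arrays. Among all genes 4.02% were called with all arrays and 18.7% without replicate 3 of both groups. Oxidative phosphorylation had a median of -0.05 over 25 genes (0 higher and 2 lower at an unadjusted p under 0.05) and 1 gene lower without replicate 3. Cholesterol synthesis had -0.05 over 24 genes (2 and 3), with 3 higher and 2 lower without replicate 3. Glycolysis and hypoxia had -0.03 over 21 genes (3 and 3), with 2 higher and 3 lower without replicate 3. The circadian clock had 0.02 over 19 genes (1 and 0), with 1 higher and 1 lower without replicate 3, and the integrated stress response 0.01 over 19 genes (0 and 1), with 1 lower. Principal cells of the collecting duct had 0.11 over 17 genes (2 and 0), with 1 higher without replicate 3, and intercalated cells -0.20 over 16 genes (0 and 0), with 2 higher. The EGF receptor family had 0.06 over 13 genes (2 and 1), with 2 higher without replicate 3. Major urinary proteins (9 genes), adipocyte (9) and adrenal cortex markers (5) had medians of -0.55, 0.07 and 0.02, with 0 at an unadjusted p under 0.05 by limma and 0 calls without replicate 3. Proximal tubule enzymes and regulators had -0.17 over 28 genes (2 higher and 8 lower at an unadjusted p under 0.05), and 0.05 without replicate 3, when 4 rose and 6 fell.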
